A study of Ovis aries with 6 samples.

Results

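The EGR, NR4A and IER genes and MYC are immediate-early genes, and their read counts were followed here in the longissimus muscle of 2 sheep breeds. The 10 genes were chosen by symbol: EGR1, EGR2, EGR3, NR4A1, NR4A2, NR4A3, IER2, IER3, IER5 and MYC. Each had 1 row among the 23144 genes counted, and all 10 passed the filter on low counts. The muscle came from adult females aged 1 year. One breed was the Qianhua Mutton Merino, QHMM below, and the other the Small Tail Han, STH below, with 3 animals per breed and 1 library per animal. No genetic change or treatment was applied to either group, and both were kept in one environment on free food and water. Live weight was measured after a fast before slaughter, so that free feeding ended before then. The animals were selected from larger groups of slaughtered sheep, and the muscle was snap-frozen before RNA extraction. All comparisons are given as STH vs. QHMM, so that a positive log2 fold change is a higher level in STH.

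Immediate-early genes are switched on within minutes of a stimulus, without new protein synthesis, and their transcripts are short-lived. In muscle they respond to contraction, stretch, injury, adrenergic hormones and serum factors, largely through kinases that act on the transcription factors SRF, ELK1 and CREB. The EGR proteins are zinc finger transcription factors, and the NR4A proteins are nuclear receptors that act without a known natural ligand and regulate glucose and lipid use in muscle. IER2, IER3 and IER5 encode small regulatory proteins, and MYC encodes a transcription factor that promotes growth and ribosome production when bound to its partner MAX.

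The libraries held from 10982191 to 14334544 reads on genes. The values below are normalized counts, that is, reads divided by the library size after scaling by the TMM method of edgeR and multiplied by the mean scaled library size. They compare 1 gene between libraries. Of 8 marker genes of the muscle fibre, 7 were found. MYH7, the slow myosin heavy chain, was called lower in STH (log2 fold change -1.34, SE 0.26, FDR = 0.0251). The breeds did not overlap for MYH2, a fast one (-0.82, FDR = 0.200), as for 24.7% of all tested genes. The summed level of the markers was between 2191300 and 3010050 normalized counts in QHMM and between 1548430 and 3007810 in STH. ACTA1 and CKM had the largest share of it. The fast-fibre marker TNNT3 had a row but 0 reads in every library. This 0 is not read as absence of its RNA, since it may reflect how reads were assigned to genes, which was not tested. QHMM replicate 3 stood apart from the other libraries in the immediate-early genes, as is described below, and the breed comparison of each of the 10 genes and of each called gene of the pathway lists is therefore given with and without it. In whole muscle, fewer cells of a type and less RNA per cell cannot be told apart.

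EGR1, the best known of the EGR factors, was measured at 9517, 2204 and 35.5 normalized counts in the QHMM libraries, here and below in the order of replicates 1 to 3, and at 9786, 2302 and 4571 in the STH libraries. QHMM replicate 3 was far below the other 5 libraries, while replicate 1 lay within the range of STH and replicate 2 just under its lowest value. EGR2, which is also needed for nerve myelination, had 144, 51.5 and 6.09 normalized counts in QHMM and 172, 51.3 and 99.7 in STH. For EGR3, a factor required for muscle spindle development, QHMM gave 278, 217 and 7.11 and STH gave 272, 153 and 179. All 3 EGR genes thus had their lowest value in QHMM replicate 3, and in both breeds their highest value was in replicate 1. Replicate numbers do not link animals of the 2 breeds, and 14.6% of the 12506 tested genes were highest in replicate 1 in both breeds, against 5 of the 10 genes here (EGR1, EGR2, EGR3, NR4A2 and IER3). The QHMM reads behind these values were 10660, 1883 and 35 for EGR1, 161, 44 and 6 for EGR2, and 311, 185 and 7 for EGR3.

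NR4A1, a nuclear receptor that raises glucose use in muscle, was at 14760.4, 11889 and 361 normalized counts in the QHMM libraries and at 6412, 3648 and 6569 in the STH libraries. The first 2 QHMM libraries were above all 3 STH libraries, and the third was below all of them. NR4A2, its close relative with a role in dopamine neurons, had 1275, 783 and 13.2 normalized counts in QHMM and 465, 302 and 374 in STH, which is the same arrangement of the libraries. NR4A3, the third receptor of the family and one that responds to exercise, had 306, 49.2 and 3.05 in QHMM and 61.1, 58.8 and 106 in STH. QHMM replicate 3 was again the lowest library, but QHMM replicate 2 was also below the STH libraries, and only replicate 1 was above them. QHMM replicate 3 held 356 reads of NR4A1, 13 of NR4A2 and 3 of NR4A3.

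IER2, a nuclear protein that acts on transcription, had 344, 220.0 and 30.5 normalized counts in QHMM and 232, 179 and 292 in STH. It followed the EGR and NR4A genes, with QHMM replicate 3 lowest. IER3, a protein linked to cell survival and the control of ERK signalling, differed from them, with 402, 394 and 246.7 normalized counts in QHMM and 245.9, 137 and 148 in STH. The breeds did not overlap, although the lowest QHMM library and the highest STH library were almost equal. This depended on the scaling, since in RPKM, scaled by gene length and total count, IER3 was at 16.8 in QHMM replicate 3 and 19.5 in STH replicate 1. IER5, which takes part in the heat shock and cell cycle responses, had 374, 105 and 111 in QHMM and 141, 83.3 and 152 in STH. Its QHMM replicates 2 and 3 lay within the range of STH, and replicate 1 was above every other library.

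MYC was at 503.5, 164 and 41.6 normalized counts in the QHMM libraries and at 1205, 1502 and 1100.1 in the STH libraries. The lowest STH library was above the highest QHMM library, so that the breeds did not overlap, and the mean was 236 ± 239 (SD, n = 3) in QHMM and 1269 ± 209 (SD, n = 3) in STH. MYC shared its minimum in QHMM replicate 3 with 7 of the other genes. In its relation to the breeds it differed from them, since all of its QHMM libraries were below STH.

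**Figure D1:**
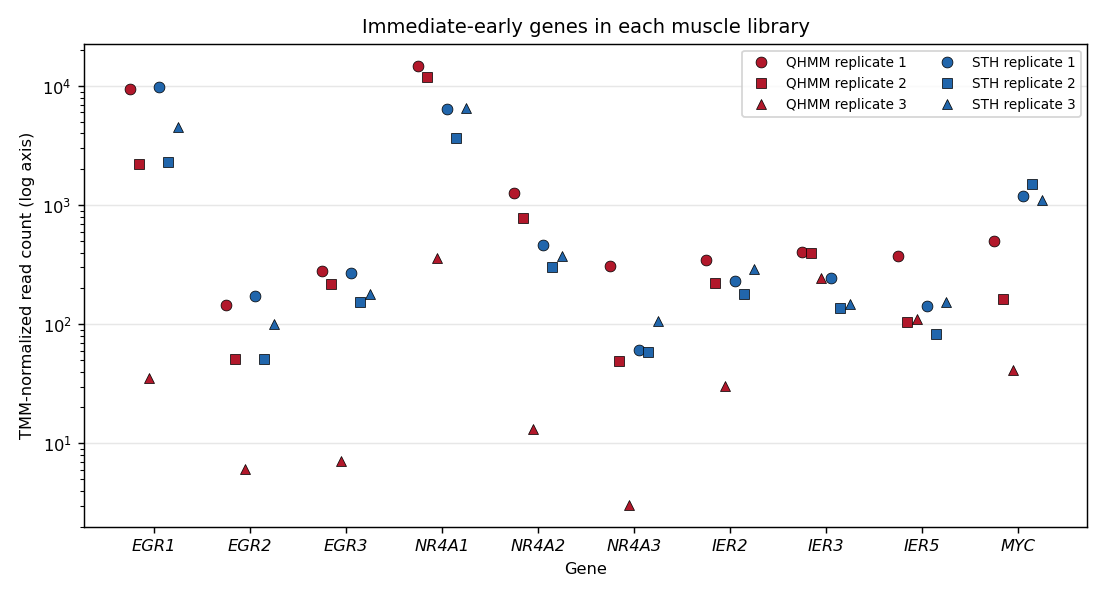
TMM-normalized read counts of the 10 immediate-early genes (log axis) in each library, with QHMM in red, STH in blue and replicates 1, 2 and 3 as circles, squares and triangles. The red triangle, QHMM replicate 3, is the lowest point of 8 genes, while IER3 and IER5 have it near or within the other points, and for MYC all 3 blue points, at 1100.1 or above, lie over the red ones.

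QHMM replicate 3 was compared with the other 2 libraries of its breed as a description, since a single library has no replicate of its own. A total of 8 of the 10 genes were at least 2-fold below both QHMM replicates 1 and 2, where 2.47% of all tested genes were. The exceptions were IER3 and IER5. At a threshold of 10-fold, 5 of the 10 genes remained (EGR1, EGR3, NR4A1, NR4A2 and NR4A3), against 0.248% of all tested genes. The same 8 genes were below all 5 other libraries, as were 16.8% of all tested genes. None of the 10 genes was at least 2-fold below both other libraries of its breed in any of the other 5 libraries, for which the shares of all genes were 1.33% in QHMM replicate 1, 3.45% in QHMM replicate 2, and 1.26%, 3.52% and 3.57% in STH replicates 1, 2 and 3.

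The size of the gap differed among the genes. With the reads of QHMM replicates 1 and 2 pooled, EGR1 was 179-fold lower in replicate 3, with a 95% exact counting interval of 128 to 257. For NR4A2 it was 80.5-fold (47.0 to 151), for NR4A3 64.0-fold (21.7 to 312), for NR4A1 37.4-fold (33.7 to 41.6) and for EGR3 35.3-fold (17.0 to 88.4). The 5 largest gaps were thus those of EGR and NR4A genes, and the counting interval of EGR1 did not meet that of NR4A1 or EGR3. The gap was 17.0-fold for EGR2 (7.70 to 47.0), 9.53-fold for IER2 (6.60 to 14.3) and 8.57-fold for MYC (6.25 to 12.04). It was smallest for IER5, at 2.33-fold (1.89 to 2.89), and for IER3, at 1.62-fold (1.40 to 1.87), and for IER5 the levels of QHMM replicates 2 and 3 were almost equal. These intervals cover counting error only, and amplified reads are not independent molecules. They leave out the difference between the 2 pooled animals, so that they do not settle the order of the genes. QHMM replicate 1 was 4.32 times replicate 2 for EGR1, 6.23 times for NR4A3 and 3.07 times for MYC. It was 1.28 times replicate 2 for EGR3 and 1.24 times for NR4A1.

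In the log2 ratio of QHMM replicate 3 to the mean of replicates 1 and 2, with 1 normalized count added to both, the median of the 10 genes was -4.37, and that of all tested genes was -0.02 with a median absolute value of 0.29. By this ratio 8 of the genes were among the 100 lowest of the 12506, and 5 were among the 20 lowest. EGR1 had the fourth lowest ratio, at -7.33, followed among these genes by NR4A2 at -6.18 and NR4A3 at -5.46. IER5 and IER3 were ranked 445 and 1085 from the lowest, with ratios of -1.11 and -0.69. The same comparison with STH gave a median of the STH libraries that was 129 times the level of QHMM replicate 3 for EGR1, 28.9 times for MYC and 17.7 times for NR4A1, while for IER3 it was 0.599 times.

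**Figure D2:**
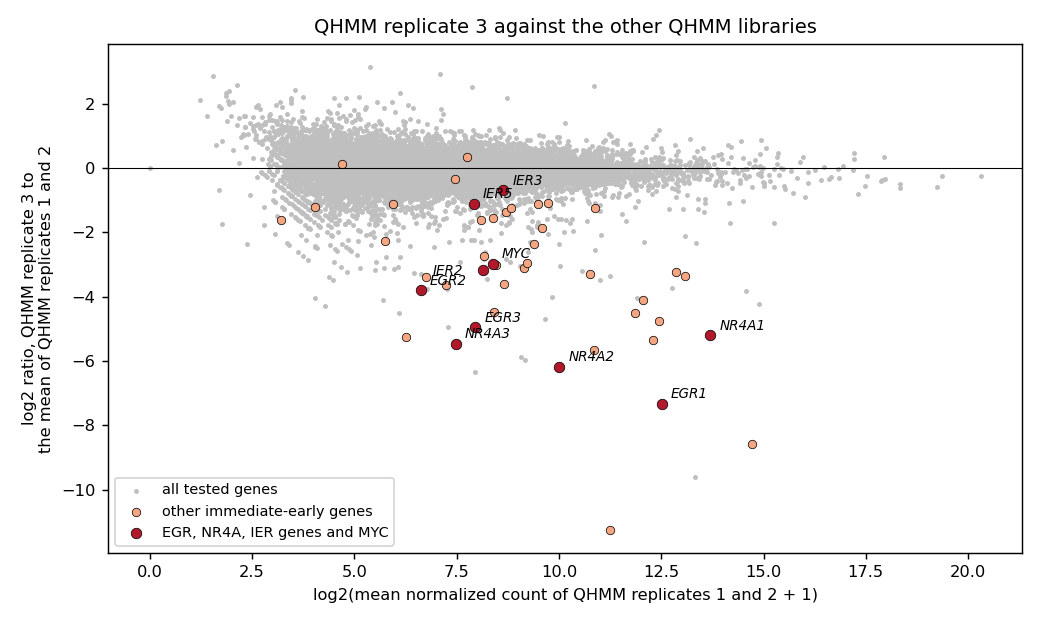
Log2 ratio of QHMM replicate 3 to the mean of QHMM replicates 1 and 2 (1 normalized count added) against the log2 mean level of those 2 libraries, for all tested genes in grey, other immediate-early genes in orange and the 10 genes in red. The grey cloud is centred near 0, with a median of -0.02, and EGR1, NR4A2, NR4A3, NR4A1 and EGR3 lie between -7.33 and -4.94. The lowest orange point is FOSB, whose position depends on the added count because it had 0 reads in QHMM replicate 3.

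The balance between the families was taken from the mean log2 normalized count of each family. The NR4A mean minus the EGR mean was 1.30, 1.40 and 1.10 in the QHMM libraries and -0.44, 0.61 and 0.56 in the STH libraries, so that all QHMM libraries, including replicate 3, were above all STH libraries. The difference of NR4A from IER behaved otherwise, with 2.27, 1.88 and -1.80 in QHMM and 1.502, 1.66 and 1.77 in STH, where QHMM replicate 3 was the only negative value. The normalized count of MYC was 0.0341, 0.0138 and 0.115 times that of NR4A1 in QHMM and 0.188, 0.412 and 0.167 times in STH. For EGR1 the ratio to NR4A1 was 0.645, 0.185 and 0.0983 in QHMM and 1.53, 0.631 and 0.696 in STH. In this ratio of single genes the breeds overlapped. The EGR and NR4A means of QHMM replicate 3 rest partly on few reads, with 6 of EGR2, 7 of EGR3, 13 of NR4A2 and 3 of NR4A3. These balances were chosen after the values were seen, and no test was made on them.

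Between the breeds, none of the 10 genes was called by the edgeR quasi-likelihood test at an FDR below 0.05 with a difference of more than 1.5-fold. Of the 12506 tested genes 3.45% were called, 1.62% higher and 1.83% lower in STH. IER3 and MYC had an unadjusted p below 0.05, as did 2395 of all genes, or 19.2%. The same 2 genes had breeds that did not overlap in normalized counts, which was so for 24.7% of all tested genes. In RPKM the breeds overlapped for IER3. DESeq2 called 1 of the 10 genes (IER3), where it called 956 of all 17662 genes it tested. On filtered log2 RPKM, limma also called 1 (MYC). Of all 11140 genes tested there, it called 346 with log2(RPKM + 1) and 328 with log2(RPKM + 0.1). The median log2 fold change of the 10 genes was -0.21, beside 0.023 for all tested genes. With 3 animals per breed, an exact two-sided permutation test of a single gene cannot give a p below 0.10.

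MYC had the largest difference, with a log2 value of 2.42 (SE 0.64, FDR = 0.0667). It was 1.92 (SE 0.44, FDR = 0.0717) without QHMM replicate 3 and 3.61 (SE 0.52, FDR = 0.0203) without QHMM replicate 1, where MYC was called. The sign was positive in every alternative, and the FDR ranged from 0.00681 to 0.203 over them, with a call in 5 of 16 alternatives. IER3 was the next by FDR, with a log2 value of -0.97 (SE 0.30, FDR = 0.104), from 348 ± 87.5 (SD, n = 3) normalized counts in QHMM to 177 ± 60.1 in STH. Its value was -1.16 (SE 0.30, FDR = 0.103) without QHMM replicate 3 and -1.30 (SE 0.30, FDR = 0.0382) without STH replicate 1. The latter was 1 of the 2 calls in 16 alternatives, over which the FDR ranged from 0.0382 to 0.303.

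For the NR4A genes the breed comparison depended on QHMM replicate 3. The log2 fold changes were -0.70 (SE 0.85, FDR = 0.705) for NR4A1, -0.86 (SE 0.90, FDR = 0.654) for NR4A2 and -0.68 (SE 0.92, FDR = 0.741) for NR4A3. Without QHMM replicate 3 they were -1.26 (SE 0.33, FDR = 0.103), -1.43 (SE 0.29, FDR = 0.0535) and -1.25 (SE 0.60, FDR = 0.352). The SE of NR4A1 and NR4A2 was smaller and the difference larger without that library, and neither gene was called. The 3 genes also depended on QHMM replicate 1, without which the log2 fold changes of NR4A1, NR4A2 and NR4A3 were -0.17 (SE 0.92), -0.08 (SE 0.95) and 1.53 (SE 0.75). On log2 RPKM with limma, with all 6 libraries, the signs of the 3 genes were positive. Without QHMM replicate 3, the breeds did not overlap for 4 of the 10 genes (NR4A1, NR4A2, IER3 and MYC), where 33.9% of all tested genes did not.

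The EGR genes and IER2 gave log2 fold changes between -0.29 and 0.14 once QHMM replicate 3 was left out. EGR1 had 0.50 (SE 1.14, FDR = 0.856) with all libraries and -0.08 (SE 0.65, FDR = 0.970) without it. EGR2 had 0.67 (SE 0.74, FDR = 0.672) and 0.14 (SE 0.53), EGR3 had 0.27 (SE 0.76, FDR = 0.888) and -0.29 (SE 0.31), and IER2 had 0.24 (SE 0.59, FDR = 0.871) and -0.27 (SE 0.31). Without QHMM replicate 1, in contrast, EGR1 was at 2.29 (SE 1.17, FDR = 0.384), EGR2 at 1.91 (SE 0.73, FDR = 0.242), EGR3 at 0.84 and IER2 at 0.89. With all libraries kept, limma on log2 RPKM gave 2.27 to 2.46 for EGR1, where edgeR gave 0.50. The SEs leave room for sizeable differences in either direction. IER5 had -0.65 (SE 0.47, FDR = 0.494) with all libraries and -0.93 (SE 0.47, FDR = 0.381) without QHMM replicate 3, and 0.20 without QHMM replicate 1, its highest library.

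**Figure D3:**
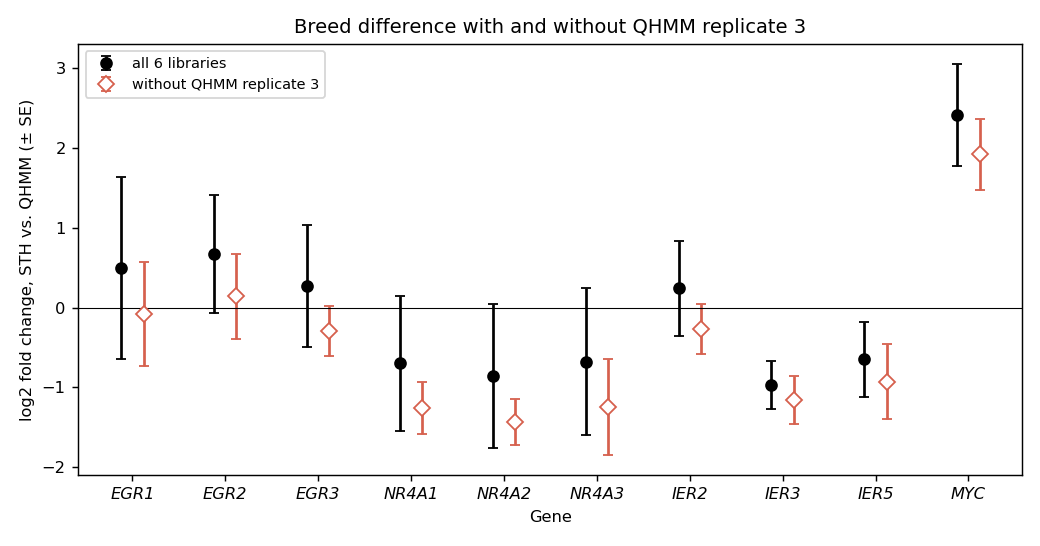
Log2 fold change of STH vs. QHMM with its SE from the edgeR quasi-likelihood fit for the 10 genes, with all 6 libraries (black circles) and without QHMM replicate 3 (open diamonds). MYC is at 2.42 and 1.92, IER3 at -0.97 and -1.16, and the error bars of the EGR and NR4A genes and IER2 are shorter without QHMM replicate 3.

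Levels of different genes were compared per length, as RPKM. The order of the medians over 6 libraries was NR4A1 (214), EGR1 (155), MYC (29.1), IER3 (18.2), EGR3 (10.6), IER5 (10.1), NR4A2 (10.1), IER2 (8.23), EGR2 (3.60) and NR4A3 (2.81), and the ranges of all 9 neighbouring pairs overlapped. In the pair of EGR1 and MYC the overlap came from QHMM replicate 3, the only library with EGR1 below the highest MYC value (66.6). EGR1 had 464, 90.6 and 1.77 RPKM in QHMM and 565, 123 and 188 in STH, which placed it between 155 (STH replicate 1) and 658 from the top of 23119 genes in 5 libraries and at 9569 in QHMM replicate 3. NR4A1 had 481, 326 and 11.99 RPKM in QHMM and 247, 130 and 181 in STH. One of these 2 genes led in 5 libraries, and in QHMM replicate 3 the highest of the 10 genes was IER3, at 16.8 RPKM.

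Other genes of the immediate-early response were taken from a list of 38, of which 37 were found and 35 tested. The summed level of the list was 103746, 51319 and 5876 normalized counts in the QHMM libraries and 83158, 44597 and 63166 in the STH libraries. QHMM replicate 3 was at least 2-fold below both other QHMM libraries in 26 of the 35 tested genes, with a median log2 ratio of -2.96, beside the 2.47% of all genes given above. FOS, the partner of JUN in the AP-1 factor, had 38559.7, 15556 and 70.0 normalized counts in QHMM and 33662.5, 8481 and 15749 in STH. FOSB had 3636 and 1346 reads in QHMM replicates 1 and 2 and 0 in replicate 3, which is at least 792-fold lower at a floor of 3 reads in that library. DUSP1, the phosphatase that switches off MAP kinases, had 8117, 9060.4 and 847 normalized counts in QHMM and 9178, 8026 and 10465 in STH. The levels of DUSP4, DUSP6 and HBEGF in QHMM replicate 3 were near those of the other QHMM libraries, with log2 ratios of 0.13, -0.34 and 0.36.

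Of these genes, 2 were called between the breeds, both higher in STH, and the median log2 fold change of the list was 0.38. GADD45G, a stress-response gene of the GADD45 family, had 85.7, 35.1 and 27.4 normalized counts in QHMM and 1375, 568 and 1546 in STH, giving a log2 fold change of 4.54 (SE 0.50, FDR = 0.00321). FOSL2, an AP-1 subunit, had 364, 181 and 88.3 in QHMM and 861, 1663 and 1245 in STH, for a log2 fold change of 2.57 (SE 0.45, FDR = 0.0174). For both genes every STH library was above every QHMM library, as for MYC, and both were also called without QHMM replicate 3, at 4.25 (FDR = 0.0125) and 2.20 (FDR = 0.0353). FOSL2 was not called without QHMM replicate 2 or on unfiltered log2 RPKM. The next largest values, none of them called by edgeR after the filter on low counts, were those of FOSL1 (2.12, FDR = 0.0779), SIK1 (1.88, FDR = 0.139), MAFF (1.71, FDR = 0.155) and BTG2 (-1.67, FDR = 0.336). Without QHMM replicate 3 they were 1.71, 1.36, 1.19 and -2.23. FOSL1 was called by DESeq2 and by edgeR without a filter, and SIK1 by edgeR without a filter. PER1, a clock gene named here after its values were seen, had 1.33 (FDR = 0.0595) and was called in 4 of 16 alternatives.

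**Figure D4:**
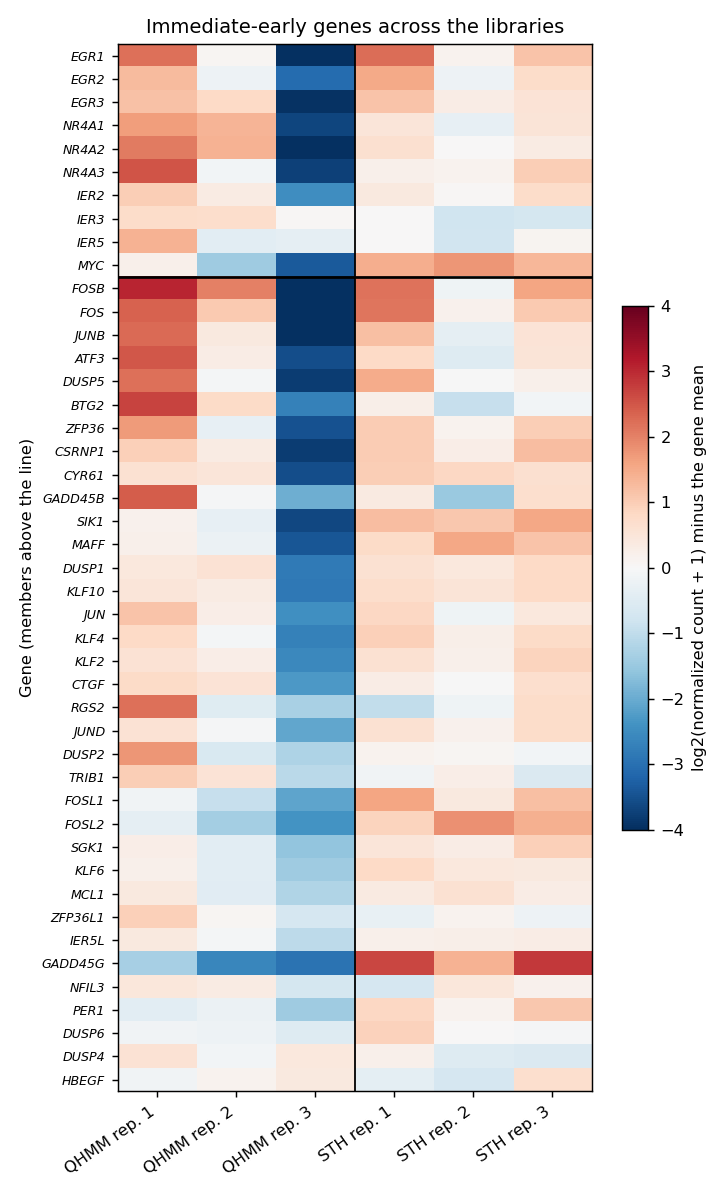
Log2 (normalized count + 1) minus the mean of each gene over the 6 libraries, for the 10 genes (above the line) and the 35 other tested immediate-early genes, with red above and blue below the mean and the colour ending at 4 in both directions. The column of QHMM replicate 3 is blue in most rows, with a median log2 ratio to the other QHMM libraries of -4.37 in the upper block and -2.96 in the lower block, and MYC, FOSL2 and GADD45G are red in all STH libraries.

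The genes whose profile over the 6 libraries was most like that of EGR1 were found by the mean absolute difference of log2 levels after centring. They were FOS (0.37), DUSP5 (0.68), JUNB (0.72), ZFP36 (0.78) and PTGS2 (0.80). The genes most like the median profile of the 10 genes were ZFP36 (0.31), C-JUN (0.33), CSRNP1 (0.35), ATF3 (0.37) and LOC101118186 (0.38), which the table matches to KLF2 by sequence. All but PTGS2 were in the list of immediate-early genes. These are descriptions over 6 libraries, and the low value in QHMM replicate 3 has a large weight in them.

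In RNA, the kinases and transcription factors upstream of these genes did not show the same gap, and their protein activity was not measured. Of the 21 listed, 20 were tested and 0 were called by edgeR, and the median log2 fold change was -0.07. An unadjusted p below 0.05 was reached by 1 of them, beside 19.2% of all tested genes. Only ELK4 was at least 2-fold lower in QHMM replicate 3 than in both other QHMM libraries, with 53.6, 43.3 and 17.3 normalized counts in QHMM and 42.1, 60.9 and 25.8 in STH, and the median log2 ratio of the list was -0.22. SRF, which binds the promoters of EGR1, IER2 and FOS, had 1412, 1832 and 1479 normalized counts in QHMM and 1094, 1129 and 1777 in STH. The extracellular signal-regulated kinase MAPK3 had 1053, 1049 and 873 in QHMM and 785, 751 and 1218 in STH. MKL1, a coactivator of SRF, had the largest breed difference of the list, at -1.15 (SE 0.32, FDR = 0.0823). It was followed in size by CRTC2, a coactivator of CREB, at 0.64, and by MEF2A and MEF2C at -0.46 and -0.40, and none of the 4 was called by edgeR after the filter on low counts, while MKL1 was called by DESeq2 and by edgeR without a filter.

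Among 14 genes for the partners and antagonists of the EGR, NR4A and MYC proteins, 13 were tested, 1 was called higher and 1 lower in STH, and 0 were 2-fold below both other QHMM libraries in QHMM replicate 3. The gene listed as LOC101120670 and matched by sequence to MAX, the dimerization partner of MYC, had 368, 393 and 364 normalized counts in QHMM and 817, 2059.8 and 1851 in the STH libraries. The log2 fold change was 2.07 (SE 0.32, FDR = 0.0123). The genes of both subunits of the MYC and MAX dimer thus had non-overlapping breeds with STH above, while only MAX was called. Breeds did not overlap, in either direction, for 24.7% of all tested genes. RXRG, a retinoid receptor that can pair with NR4A1 and NR4A2, had 1119, 1444 and 766 in QHMM and 313, 155 and 359.6 in STH, for a log2 fold change of -2.01 (SE 0.34, FDR = 0.0143). Without QHMM replicate 3 the values were 2.05 (FDR = 0.0445) for MAX and -2.21 (FDR = 0.0212) for RXRG. MAX was called in 16 of 16 alternatives and RXRG in 15 of 16.

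Antagonists of MYC that compete for MAX were not called. MXD3 had 23.2, 14.04 and 18.3 normalized counts in QHMM and 4.13, 1.07 and 6.72 in STH, which gave -2.20 on the log2 scale (SE 0.60, FDR = 0.0727). These values rest on few reads, with 26, 12 and 18 in QHMM and 5, 1 and 6 in STH. MXD1 had 124, 55.0 and 99.5 in QHMM and 240, 111 and 150 in STH, for a log2 fold change of 0.84 (FDR = 0.235), and MGA had 0.40. NAB1, a corepressor of the EGR proteins, had 229, 131 and 197 in QHMM and 153, 112 and 97.5 in STH, for a log2 fold change of -0.62 (FDR = 0.269).

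**Figure D5:**
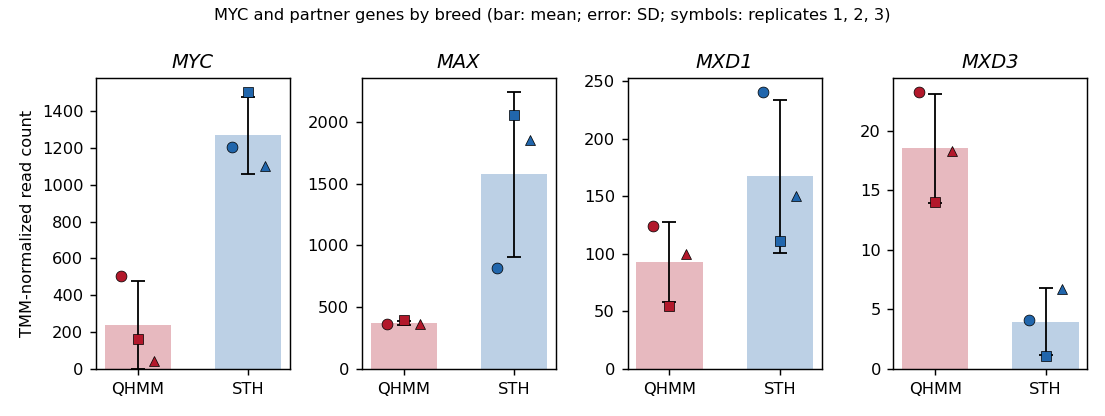
TMM-normalized read counts of MYC, MAX, MXD1 and MXD3 in QHMM (red) and STH (blue), with bars for the mean of 3 libraries, error bars for the SD (ended at 0 for MYC in QHMM) and symbols for replicates 1 (circle), 2 (square) and 3 (triangle), on separate linear axes from 0. MYC has a mean of 236 in QHMM and 1269 in STH, and all STH libraries of MYC and MAX are above all QHMM libraries.

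Genes of muscle carbohydrate use that are linked to the NR4A receptors were measured as possible companions of NR4A1. All 10 were tested and 0 were called by edgeR, with a median log2 fold change of -0.49. An unadjusted p below 0.05 was reached by 5 of them, beside 19.2% of all tested genes. SLC2A4, the insulin-responsive glucose transporter, had 1756, 2401 and 1928 normalized counts in QHMM and 1284, 787 and 873 in STH, for a log2 fold change of -1.05 (SE 0.25, FDR = 0.0508), just outside the threshold. The values for GYG1, which primes glycogen synthesis, and for PHKA1 and PHKG1, subunits of phosphorylase kinase, were -0.99, -0.73 and -0.58, with an FDR of 0.124, 0.138 and 0.165. DESeq2 called 3 genes of this list (SLC2A4, GYG1 and PHKA1) and limma on RPKM called 0. SLC2A4 was called in 5 of 16 alternatives, which in edgeR were those without a filter, with at least 10 counts throughout, with robust dispersions and without STH replicate 1, and GYG1 was also called without STH replicate 3. No gene of this list was 2-fold below both other QHMM libraries in QHMM replicate 3, and the median log2 ratio was -0.09, beside -5.20 for NR4A1.

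Genes of ribosome production and growth that MYC is known to regulate were also measured. All 15 were tested and 0 were called by edgeR, with a median log2 fold change of 0.51. An unadjusted p below 0.05 was reached by 9 of them, beside 19.2% of all tested genes. Of those 9, the values of NCL, NOP56, NOP58, DDX21, NOLC1 and RRS1 were positive and those of ODC1, CCND2 and LDHA negative. DDX21, an RNA helicase of the nucleolus, had 163, 116 and 164 normalized counts in QHMM and 231, 713 and 226 in STH, for a log2 fold change of 1.39 (SE 0.42, FDR = 0.102). RRS1 and NOP58, which take part in ribosome assembly, had 1.07 (FDR = 0.234) and 0.91 (FDR = 0.241), and CCND2, a cyclin, had -0.95 (FDR = 0.224). DESeq2 called 1 gene of this list (DDX21) and limma on RPKM called 0. In edgeR, DDX21 was called without a filter, RRS1 without STH replicate 1 and LDHA without STH replicate 3. For DDX21, RRS1 and NOP58 the highest library was STH replicate 2, which also had the highest level of MYC. This rests on 1 library, and MYC was at 1205, 1502 and 1100.1 normalized counts in STH. A link of these genes to MYC was not tested. NOP58 had 121, 56.2 and 89.3 in QHMM and 119, 272 and 113 in STH, where the breeds overlapped. In QHMM replicate 3, where MYC had a log2 ratio of -2.97, the median of this list was -0.03.

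Markers of other cell types were measured beside the immediate-early genes, and their part in the differences was not tested. Of 5 markers of smooth muscle and pericytes, all were found, with summed levels between 3375 and 7820.3 normalized counts in QHMM, where replicate 3 was lowest, and between 4529 and 7313 in STH. Of these, TAGLN was at least 2-fold below both other QHMM libraries in QHMM replicate 3, with 1290.0, 845 and 359 normalized counts in the QHMM libraries, and 0 of the 5 were at 0. In the other marker lists no gene was 2-fold below both in that library. The 5 endothelial markers found of 7 summed to between 7960.2 and 8248 in QHMM and between 8555 and 9969 in STH, with QHMM replicate 3 at 8081, and the 8 macrophage and leukocyte markers summed to between 1179.6 and 1501 in QHMM and between 913 and 1495 in STH. The 6 fibroblast markers summed to between 29294 and 50033 in QHMM, with replicate 3 highest, and between 10214 and 22796 in STH, without overlap of the breeds. The collagen genes COL1A1, COL1A2 and COL3A1 held most of the sum, and the breeds did not overlap for any of them, as for 24.7% of all tested genes. For PDGFRA, DCN and LUM the breeds overlapped, and LUM was at 1475 in QHMM replicate 1 and 716 in QHMM replicate 3. The 4 adipocyte markers summed to between 1335 and 4109 in QHMM and between 572 and 954 in STH, and 3 of them (ADIPOQ, PLIN1 and LEP) were called lower in STH. The 4 satellite cell markers summed to between 163 and 222 in QHMM and between 281 and 339 in STH, with CDH15, which held most of the sum, called higher in STH. PAX7 and MYF5 had log2 fold changes of -1.43 (FDR = 0.294) and -0.01. The 4 Schwann cell markers summed to between 408 and 768 in QHMM and between 339 and 727 in STH.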

How the data were processed

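Poly(A) RNA was read on an Ion Proton instrument. The authors mapped the filtered reads to the sheep genome (Oar 3.1), kept reads with a single position, and deposited gene-level read counts. The aligner, the counting program and its strand setting are not given in the sources used here, so that reads of overlapping genes on opposite strands may be mixed. The authors also deposited RPKM values, which are scaled by the library's total count and gene length, as the constant implied length per gene shows. The 2 tables were joined on 23119 genes, and 25 names were not matched.

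Counts were tested with edgeR 4.0.16 in R 4.3.3 (TMM, filterByExpr on breed, glmQLFit and glmQLFTest, breed as the only term), since EBSeq, the study's program, was not installed. A gene was called at a Benjamini-Hochberg FDR below 0.05 over 12506 genes and an absolute log2 fold change above 0.585. The SE was obtained from the log2 fold change and the F statistic. The fit was checked on counts simulated for genes that had passed the filter, which does not check the filter itself. Alternatives were DESeq2 1.42.0, upper-quartile scaling, other filters, a block for the replicate number, no minimum fold change, robust dispersions, limma-trend (limma 3.58.1) on log2(RPKM + 1) and log2(RPKM + 0.1), and leaving out each library. Summaries and plots were made with Python 3.11.15, pandas 2.3.3, SciPy 1.17.1 and matplotlib 3.10.9.

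The 10 genes and the lists were chosen with earlier results of these data known. Of 144 list genes, 124 were matched by symbol, 14 by the sequence match (BLAST) printed in the table and 6 were not found. Every one of the 10 genes is named. Of each list, called genes are named (up to 6 by FDR) with up to 4 more by absolute log2 fold change, and genes named beyond that were chosen after their values were seen. Library totals between 10982191 and 14334544 reads set the precision, and a gene with 0 reads was given a floor of 3 reads.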

Additional observations from a re-analysis of the deposited data

How the results depend on the processing

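The number of genes called in the whole table (432 of 12506 tested) was 956 of 17662 with DESeq2 and 806 of 17668 without a filter on low counts. It was 78 of 17644 with limma on unfiltered log2(RPKM + 1), and 131 to 535 when 1 library was left out. The share called higher was 47.0% with edgeR and 61.3% with limma on log2(RPKM + 1). Of the 10 immediate-early genes, 0 were called by edgeR, and 1 was called with DESeq2 (IER3), without a filter (MYC), with limma on log2(RPKM + 1) and log2(RPKM + 0.1) (MYC), and with the replicate number as a block (MYC, 3.0, FDR = 0.0211). Leaving out 1 library gave 0 to 1, with MYC called without QHMM replicate 1 and IER3 without STH replicate 1. Of the genes in the 5 lists, 4 were called, 11 with DESeq2, 10 without a filter and 2 with limma on unfiltered RPKM, with 3 to 6 when a library was left out. The count of 8 genes at least 2-fold low in QHMM replicate 3 was 5 among the 7 genes whose counts were 10 or more throughout and 5 at 10-fold, a threshold added after the data were seen. The log2 fold changes of NR4A1, NR4A2 and NR4A3 reversed to 0.51, 0.20 and 0.24 with limma on log2(RPKM + 1) and to 0.54, 0.66 and 0.87 with log2(RPKM + 0.1). With limma on unfiltered log2(RPKM + 1) they were also 0.51, 0.20 and 0.24, and the cause of the reversal was not tested. In edgeR without a filter on low counts they stayed negative, at -0.72, -0.87 and -0.69. When 1 library was left out, the log2 fold changes ranged from -0.20 to 2.29 for EGR1, 0.14 to 1.91 for EGR2, -0.29 to 0.84 for EGR3, -1.26 to -0.17 for NR4A1, -1.43 to -0.08 for NR4A2, -1.25 to 1.53 for NR4A3, -0.27 to 0.89 for IER2 and -0.95 to 0.20 for IER5. The replicate numbers did not pair the animals, with correlations of 0.226, -0.038 and -0.13 between same-numbered libraries, and with the block 457 genes were called and NR4A1, NR4A2 and NR4A3 were at -0.05, -0.05 and 0.34. Depth limits EGR2, EGR3 and NR4A3 most, which had 6, 7 and 3 reads in QHMM replicate 3.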

Other observations

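A few genes outside the immediate-early lists were also far lower in QHMM replicate 3 than in the other QHMM libraries, and they were chosen after their values were seen. HSPA6, an inducible heat shock protein, was at 19526, 813 and 12.2 normalized counts in the QHMM libraries and at 187, 163 and 774 in the STH libraries. Its log2 ratio of -9.59 was the second lowest of all tested genes. SOCS3, a feedback inhibitor of cytokine signalling, had 458, 31.6 and 2.03 in QHMM and 177, 29.9 and 48.2 in STH. The gene listed as PAI-1, an inhibitor of plasminogen activators, had 649.9, 503 and 8.12 in QHMM and 383, 80.1 and 316 in STH. ADAMTS4, a protease of the extracellular matrix, had 1026, 39.8 and 8.12 in QHMM and 133, 29.9 and 112 in STH. QHMM replicate 3 was the lowest of the 6 libraries for all 4 genes, and QHMM replicate 1 was the highest.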
